A study of Mus musculus with 14 samples.

Results

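The regulators described here are 9 mouse genes that control lipid synthesis in liver or are linked to it: Srebf1, Srebf2, Mlxipl, Mid1ip1, Angptl8, Thrsp, Insig1, Insig2 and Pnpla3. A gene was taken as measured where the annotation of the array gave a probe set its symbol and no other. That held for 8 of the 9 genes, with 12 probe sets among 22690 on the array, and Insig1 was not analysed here. Each gene was represented by its probe set of highest mean intensity over the 14 arrays, and the others of Srebf2, Thrsp and Insig2 served as a check. All 8 passed the filter on mean intensity, as did 13576 probe sets in all.

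Total RNA was measured in normal mouse liver and in livers growing back after partial hepatectomy (PHx), an operation that takes out some of the lobes. Livers recovered 4, 8, 12, 36, 48 or 72 h after PHx were compared with normal liver, 2 arrays in each of the 7 groups. Each RNA came from pooled livers of 4 to 6 mice. The labels give no strain, sex or age, nor whether each of the 2 arrays of a group held a pool of its own, so the p-values rest on array-to-array spread alone, and that spread may be only technical. No sham-operated group was used here, so effects of surgery, anaesthesia, feeding and time of day cannot be told apart from those of tissue loss. The 6 comparisons with normal liver share the same 2 arrays.

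SREBP-1 and SREBP-2, the products of Srebf1 and Srebf2, are transcription factors made as membrane proteins of the endoplasmic reticulum. SCAP carries them to the Golgi apparatus for cleavage, and INSIG proteins hold SCAP back when sterols are plentiful. In liver SREBP-1c drives fatty acid synthesis after insulin, SREBP-2 drives cholesterol synthesis, and ChREBP, the product of Mlxipl, drives glycolytic and lipogenic genes when glucose is high. Mid1ip1 and Thrsp encode related small proteins that promote fatty acid synthesis, the Mid1ip1 product by assembling acetyl-CoA carboxylase into filaments. Angptl8, a secreted protein induced by feeding and insulin, restrains lipoprotein lipase, and Pnpla3 is a lipid droplet protein whose gene is a target of SREBP-1c.

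RefSeq windows from 250 bases before to 50 bases after each annotated start (build GRCm38.p6) were found for all 9 genes, 14 windows in all. The 6 windows printed here belong to the genes whose levels moved most, so that those that fell together can be read beside Insig2, which rose; Srebf1, Mlxipl and Insig2 have further windows. Capitals mark matches, on either strand, to CCAAT (read as ATTGG on the other strand) and to CACGTG.
Srebf1, chr11:60210422-60210721, minus strand: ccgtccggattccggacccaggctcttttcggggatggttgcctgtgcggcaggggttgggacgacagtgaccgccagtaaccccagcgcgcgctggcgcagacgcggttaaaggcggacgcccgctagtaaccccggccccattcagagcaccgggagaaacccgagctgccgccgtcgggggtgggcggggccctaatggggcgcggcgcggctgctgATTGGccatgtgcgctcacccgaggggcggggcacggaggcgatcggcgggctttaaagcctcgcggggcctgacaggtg
Mlxipl, chr5:135089640-135089939, plus strand: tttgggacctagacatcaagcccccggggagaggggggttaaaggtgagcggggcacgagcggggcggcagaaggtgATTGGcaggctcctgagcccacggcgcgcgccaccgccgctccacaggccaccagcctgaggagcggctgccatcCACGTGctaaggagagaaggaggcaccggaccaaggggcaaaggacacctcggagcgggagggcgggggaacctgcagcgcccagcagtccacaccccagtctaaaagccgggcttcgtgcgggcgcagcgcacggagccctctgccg
Mid1ip1, chrX:10717115-10717414, plus strand: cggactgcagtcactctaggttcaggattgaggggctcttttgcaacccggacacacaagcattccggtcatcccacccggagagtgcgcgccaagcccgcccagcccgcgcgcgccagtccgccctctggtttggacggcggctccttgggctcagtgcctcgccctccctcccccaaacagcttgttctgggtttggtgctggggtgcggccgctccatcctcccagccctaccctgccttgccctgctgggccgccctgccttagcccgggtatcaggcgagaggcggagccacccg
Angptl8, chr9:21835260-21835559, plus strand: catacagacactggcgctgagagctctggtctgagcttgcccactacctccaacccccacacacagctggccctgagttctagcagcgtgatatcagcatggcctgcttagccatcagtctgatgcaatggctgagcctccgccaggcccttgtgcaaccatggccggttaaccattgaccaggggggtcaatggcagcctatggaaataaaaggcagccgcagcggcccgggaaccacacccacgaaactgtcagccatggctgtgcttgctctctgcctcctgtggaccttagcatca
Thrsp, chr7:97417501-97417800, minus strand: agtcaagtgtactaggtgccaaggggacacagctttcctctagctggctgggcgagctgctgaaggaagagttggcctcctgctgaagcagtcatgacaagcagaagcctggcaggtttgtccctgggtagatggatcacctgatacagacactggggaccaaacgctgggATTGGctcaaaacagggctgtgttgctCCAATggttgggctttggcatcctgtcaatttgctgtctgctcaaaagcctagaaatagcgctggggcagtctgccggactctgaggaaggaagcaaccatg
Insig2, chr1:121332540-121332839, minus strand: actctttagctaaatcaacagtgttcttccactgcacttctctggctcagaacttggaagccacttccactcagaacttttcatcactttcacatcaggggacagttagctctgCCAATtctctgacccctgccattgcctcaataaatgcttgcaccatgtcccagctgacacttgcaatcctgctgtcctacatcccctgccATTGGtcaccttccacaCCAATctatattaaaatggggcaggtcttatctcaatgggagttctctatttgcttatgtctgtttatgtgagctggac

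CCAAT, the site of nuclear factor Y, stood in 8 of the 14 windows and in 37.4% of 32851 windows of all genes. The printed Insig2 window held it 3 times, the first base of each match lying 136, 46 and 29 bases before the start, and the other 2 windows of Insig2 held it 0 times. The Thrsp window held it at 79 and 52 bases before the start, and the printed Srebf1 window at 30. CACGTG, the E-box core that SREBP and ChREBP dimers can bind, stood in the printed Mlxipl window 98 bases before the start and in 1 window of Insig1, against 7.15% of all windows. A pair of CACGTG spaced by 5 bases stood in 0 of the 14 windows and in 0 of all. These matches describe letters only, and a window with no match says nothing about a factor.

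Values are deposited intensities on a linear scale, already scaled between arrays. A change is the group difference in log2(intensity + 56.6), given with its standard error (SE) from a limma fit to all 14 arrays, and p-values were adjusted by Benjamini-Hochberg over all 13576 probe sets. A change was called at an adjusted p under 0.05. A gene's SE against normal liver is the same at every time. Intensities of different genes come from different probes and are not compared. Lack of overlap between arrays of 2 groups was common. Both arrays of a time lay below both normal ones for 16.3% (48 h) to 25.6% (8 h) of all tested probe sets. They lay above both for 19.4% (4 h) to 29.5% (8 h).

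Array medians ranged from 127.8 to 233.1, and precision is limited by how few arrays there are. Of 10 hepatocyte markers 8 were measured, above background on an array of every group, with summed intensities of 197753 to 402894. In limma 0 of 8 were called at any time against normal liver. An unadjusted p under 0.05 was reached by 4 at 36 h and 2 at 48 h, against 18.3% and 14.1% of all tested probe sets. Replicate 2 at 8, 12, 36 and 72 h stood apart: its 5′ signal for pyruvate carboxylase was 0.0909 to 0.137 of the 3′ signal, against 0.305 to 0.584 on the other 10 arrays. Acinar markers of pancreas (8 of 10 measured) summed to 34228 and 34623 at 4 h and to 214299 to 230444 at 8 h, against 978.6 to 1859 in normal liver. Muscle markers (9 of 9) summed to 13914 to 15775 at 4 h and 8772 to 9519 at 8 h, against 233.5 to 329.2. Adipocyte markers (7 of 9) summed to 1687 to 1749 at 4 h, 2562 to 2604 at 8 h and 1719 to 2565 at 12 h, against 901.8 to 1063, with Lep above background on 0 arrays. At 12 h the acinar sum was 1577 to 3734 and the muscle sum 1053 to 1726. At 36 h the arrays differed, replicate 2 having an acinar sum of 38719.5 and a muscle sum of 2104 and replicate 1 having 928.4 and 363.7. Kupffer cell and macrophage markers (8 of 8) summed to 6806 to 7287 at 8 h and 6081 to 8188 at 12 h, against 9659 to 10661 in normal liver. Neutrophil markers (6 of 7) summed to 1609 to 1720 at 4 h, 1967 to 2343 at 8 h and 1613 to 1668 at 12 h, against 563 to 706.3, and to 873.2 on replicate 1 and 2220 on replicate 2 of 36 h. The part of these tissues and cells in the results was not tested.

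After PHx 4 of the 8 genes fell within the first 12 h, Srebf1, Mlxipl, Mid1ip1 and Angptl8, and Insig2 rose at 4 and 8 h. Thrsp, the paralog of Mid1ip1, took another course and was called lower only at 36 and 48 h among the 6 times. Srebf2 and Pnpla3 were called at no time. In bulk RNA fewer cells of a type and less RNA per cell cannot be told apart. The F test over the 6 times called 6 of the 8, with adjusted p between 7.23e-05 for Mid1ip1 and 0.00703 for Mlxipl, and Srebf2 (0.622) and Pnpla3 (0.499) did not pass. It called 13.1% of all tested probe sets.

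**Figure D1:**
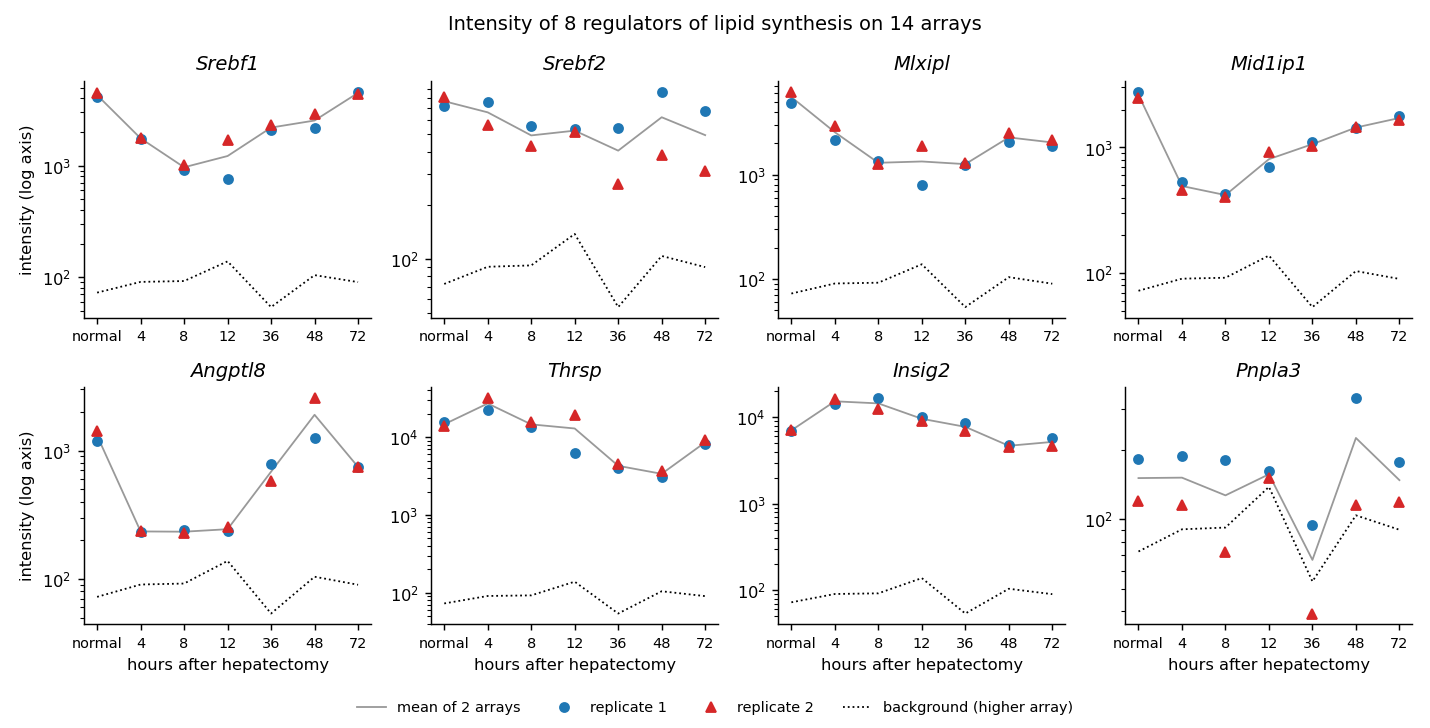
Intensity (log axis) of the 8 measured genes in normal liver and at 4, 8, 12, 36, 48 and 72 h after PHx. Points are the 2 arrays of each group, the line joins their means, and the dotted line is the higher background of the 2 arrays, so the falls of Srebf1, Mlxipl, Mid1ip1 and Angptl8 and the rise of Insig2 at 4 and 8 h can be read array by array.

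At 4 h, 1 of the 8 genes was called higher (Insig2) and 2 lower (Mid1ip1 and Angptl8), where 1.6% of all tested probe sets were called higher and 0.825% lower. At 8 h, 1 was called higher (Insig2), against 4.87% of all, and 4 lower (Srebf1, Mlxipl, Mid1ip1 and Angptl8), against 4.72%. The same 4 were called lower at 12 h, against 6.21% of all, and none higher, against 5.97%. At 36 h, Mlxipl, Mid1ip1 and Thrsp were called lower, against 1.88% (2.28% higher). At 48 h, Thrsp alone was called lower, against 0.685% (1.64% higher), and at 72 h Mlxipl alone, against 0.869% (1.62% higher). The 8 genes had median changes of -0.66, -1.31 and -1.07 at 4, 8 and 12 h and of -0.93, -0.67 and -0.63 at 36, 48 and 72 h, where the median of all tested probe sets was between -0.00 and 0.12.

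**Figure D2:**
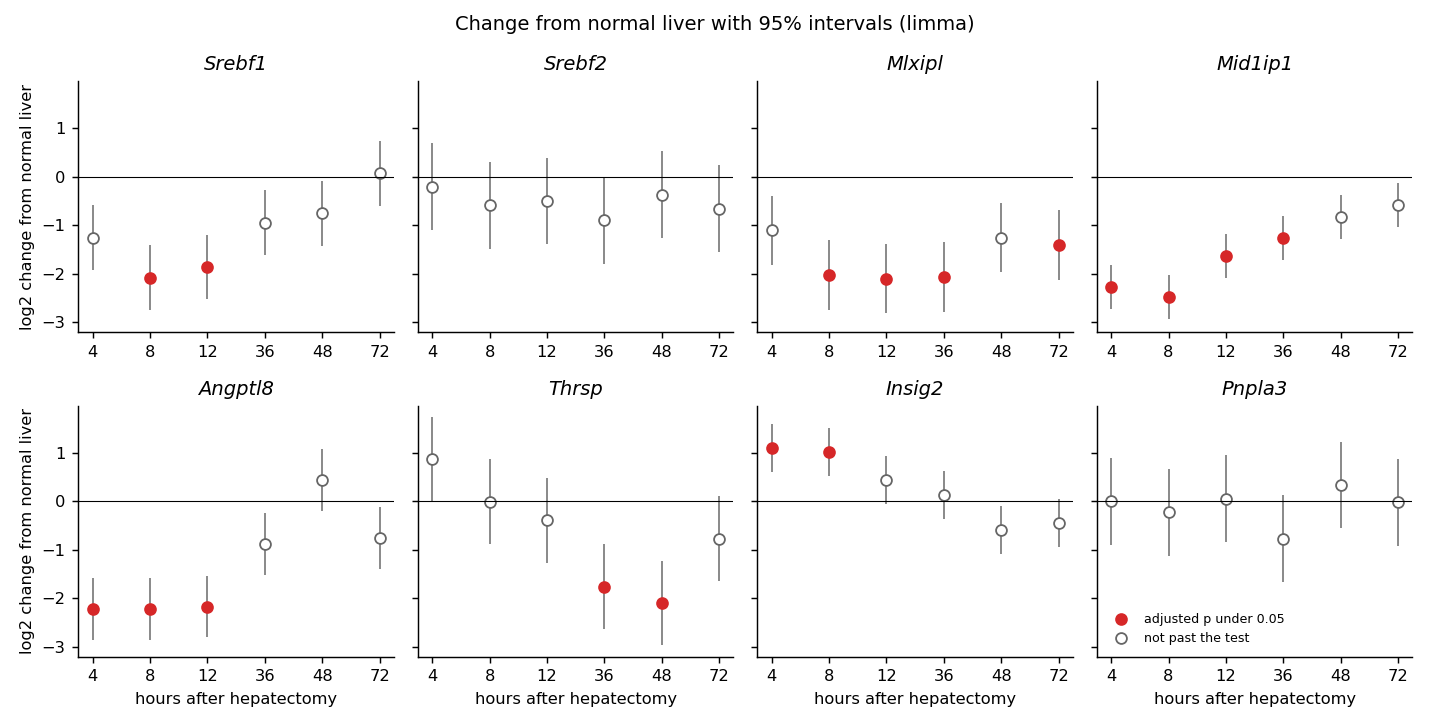
Change of each measured gene from normal liver (log2 scale) at 4 to 72 h after PHx, with the 95% interval of the limma fit. Filled points have an adjusted p under 0.05: 3, 5 and 4 of the 8 genes at 4, 8 and 12 h, 3 at 36 h, Thrsp at 48 h and Mlxipl at 72 h.

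Srebf1 fell at 8 and 12 h, and by 72 h its arrays overlapped those of normal liver. Its intensities were 4117.2 and 4428.8 in normal liver, 1731.7 and 1773.4 at 4 h, 912.4 and 1015.9 at 8 h, 751.5 and 1681.6 at 12 h, 2078.7 and 2297.4 at 36 h, 2176.5 and 2884.1 at 48 h, and 4577.8 and 4378.1 at 72 h. All arrays from 4 to 48 h lay below both normal arrays, and those of 72 h overlapped the normal range. The change was -2.09 at 8 h (SE 0.31, adjusted p = 0.00151) and -1.87 at 12 h (adjusted p = 0.00259) in limma. At 4 h it was -1.26 (adjusted p = 0.0557), at 36 h -0.95 (0.115) and at 48 h -0.76 (0.288), none of them called. At 72 h the change was 0.07, with a 95% interval of -0.60 to 0.73. The 12 h arrays, which differed most, also weigh on the spread used for every time: without replicate 1 of 12 h, the 4 h change was called at an adjusted p of 0.0061 and the 36 h change at 0.021, and without replicate 2 the values were the same. Fitted with the 4 arrays of its comparison alone, the 12 h change had an adjusted p of 0.0525, and the 4 h change one of 0.0478.

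Srebf2 passed the test at no time. Its replicates were close in normal liver and at 12 h and far apart at 36, 48 and 72 h. Its intensities were 721.6 and 811.2 in normal liver, 763.5 and 564 at 4 h, 556.7 and 429.3 at 8 h, 535.5 and 513.1 at 12 h, 545.5 and 264.7 at 36 h, 865.3 and 381 at 48 h, and 677.9 and 311.8 at 72 h. Replicate 2 was the lower array at all 6 times after PHx and the higher one in normal liver. The changes lay between -0.90 at 36 h (SE 0.41, adjusted p = 0.269) and -0.20 at 4 h (adjusted p = 0.888), with a 95% interval of -1.80 to -0.00 at 36 h. The other Srebf2 probe set gave 0.09 at 4 h (adjusted p = 0.937) and -0.07 at 36 h (adjusted p = 0.94), and it was not called at any time either. At this spread a change of Srebf2 of about that size was not detectable.

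Within an array, the log2 ratio of Srebf1 to Srebf2 was lower at the early times than at the late ones. It was 2.42 and 2.37 in normal liver, 1.12 and 1.56 at 4 h, 0.66 and 1.14 at 8 h, 0.45 and 1.61 at 12 h, 1.83 and 2.87 at 36 h, 1.28 and 2.75 at 48 h, and 2.66 and 3.59 at 72 h. The early and late arrays overlapped through replicate 1 of 48 h. The mean was 2.50 ± 0.82 at 36, 48 and 72 h and 1.09 ± 0.47 at 4, 8 and 12 h (SD, n = 6 arrays each), a difference of 1.40 (exact permutation test over 924 arrangements, two-sided, p = 0.00866, adjusted over 2 ratios 0.00866). Arrays of 1 time may share a pool, which the test does not allow for. With the 4 arrays of low 5′ signal left out, the difference was 1.18 (exact p = 0.0571 over 70 arrangements, where the smallest p is 0.0286).

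Mlxipl fell at 8, 12 and 36 h, and its 72 h arrays still lay below normal liver. Its intensities were 4836.5 and 6194.5 in normal liver, 2156.8 and 2925.9 at 4 h, 1338.2 and 1253.2 at 8 h, 801.3 and 1865.7 at 12 h, 1231.7 and 1283.9 at 36 h, 2052.6 and 2481.5 at 48 h, and 1893.3 and 2162.1 at 72 h. Every array after PHx lay below both normal arrays. The change was -2.03 at 8 h (SE 0.33, adjusted p = 0.00268), -2.11 at 12 h (adjusted p = 0.00193) and -2.07 at 36 h (adjusted p = 0.0044) in limma. The changes of -1.11 at 4 h (adjusted p = 0.12) and -1.26 at 48 h (0.0798) were not called, while without either 12 h array they had adjusted p of 0.0212 and 0.0122. At 72 h Mlxipl was called at -1.41 (adjusted p = 0.045), but the call held in 7 of 24 other settings, and leaving out a normal, 4, 8, 36, 48 or 72 h array ended it, with adjusted p up to 0.317. The 36 h call was lost without replicate 2 of normal liver (adjusted p = 0.0543).

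Late against early times (36, 48 and 72 h minus 4, 8 and 12 h) gave 1.19 for Srebf1 (SE 0.18, adjusted p = 0.000727) and 0.17 for Mlxipl (SE 0.19, adjusted p = 0.62). The interval for Mlxipl ran from -0.25 to 0.58. That comparison called 3 of the 8 genes higher at the late times, where 9.87% of all tested probe sets were, and 2 lower, where 5.94% were. Whether Srebf1 and Mlxipl differed from each other was not tested.

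Insig2 was the 1 gene of the 8 called higher than normal liver. Its intensities were 6917.4 and 7193.2 in normal liver, 14343.3 and 16255.4 at 4 h, 16601.9 and 12339.4 at 8 h, 10096.1 and 9117 at 12 h, 8551.5 and 6950.6 at 36 h, 4791.7 and 4575.5 at 48 h, and 5725.4 and 4658.1 at 72 h. On this probe set both arrays at 4, 8 and 12 h lay above the normal arrays, and both at 48 and 72 h below them. The change was 1.11 at 4 h (SE 0.23, adjusted p = 0.0253) and 1.02 at 8 h (adjusted p = 0.016) in limma. The values at 12 h (0.44), 36 h (0.13), 48 h (-0.59) and 72 h (-0.45) were not called. The early and late arrays did not overlap, the late ones being lower as for 2.21% of all tested probe sets, and late minus early was -1.16 (SE 0.13, adjusted p = 9.57e-05). In mouse liver Insig2 is known for a transcript that insulin lowers and fasting raises.

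The other Insig2 probe sets also rose early. One gave 1.03 at 4 h (adjusted p = 0.0914) and 1.17 at 8 h (adjusted p = 0.0236). The other gave 1.50 at 4 h (SE 0.28, adjusted p = 0.016), 1.67 at 8 h (0.00349) and 1.36 at 12 h (0.00949), where the brightest one was not called. At 48 and 72 h the arrays of the former lay below both normal ones, like those of the brightest. Those of the latter did not: they were 1361.2 and 1128.8 at 48 h and 1183.3 and 1601.4 at 72 h, against 1588.7 and 879.4 in normal liver. Which transcripts each detects was not examined. The 4 h call of the brightest one was lost without replicate 1 (adjusted p = 0.0751) or 2 (0.129) of normal liver, without replicate 1 (0.115) or 2 (0.227) of 4 h, and without the 4 arrays of low 5′ signal (0.058). The 8 h call was lost without replicate 2 of normal liver (0.0766), without replicate 1 of 8 h (0.138) and without those 4 arrays (0.0708). Fitted with the 4 arrays of its comparison alone, neither was called (0.0765 at 4 h and 0.0699 at 8 h).

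Mid1ip1 fell at 4, 8, 12 and 36 h, with its lowest values at 8 h and higher ones at each later time. Its intensities were 2771.5 and 2469.9 in normal liver, 531.1 and 456.6 at 4 h, 430.3 and 406.6 at 8 h, 697.1 and 918.1 at 12 h, 1105.3 and 1020.4 at 36 h, 1436.2 and 1445.3 at 48 h, and 1769.4 and 1663.3 at 72 h. From 8 h on, no array of a time overlapped those of the time before it, and every array after PHx lay below both normal ones. Of all tested probe sets, 22.7% lay lower at 8 than at 4 h without overlap. Without overlap, 16.5%, 23.5%, 21.6% and 13% lay higher at 12, 36, 48 and 72 h than at the time before. The change was -2.28 at 4 h (SE 0.21, adjusted p = 0.000219), -2.49 at 8 h (3.93e-05), -1.64 at 12 h (0.000707) and -1.26 at 36 h (0.0058) in limma. The changes of -0.84 at 48 h (0.0659) and -0.59 at 72 h (0.194) were not called, the first of them called at 0.0383 without either 12 h array. None of the steps between neighbouring times was called, although late minus early was 1.24 (SE 0.12, adjusted p = 2.73e-05). Without replicate 1 of 12 h, the step to 12 h from 8 h was called (1.04, adjusted p = 0.0404). The 36 h call was lost without replicate 2 of 36 h (adjusted p = 0.0779), without the 4 arrays of low 5′ signal (0.162), and with the 4 arrays of the comparison alone (0.0744).

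Thrsp moved otherwise. Its intensities were 15581.1 and 13769 in normal liver, 22598.6 and 31744.7 at 4 h, 13628.3 and 15639.8 at 8 h, 6321.5 and 19586.9 at 12 h, 4010 and 4558.5 at 36 h, 3097.4 and 3663.2 at 48 h, and 8063.7 and 9122.5 at 72 h. Both 4 h arrays lay above normal liver, the 8 and 12 h arrays overlapped it, and all later arrays lay below it. The change of 0.87 at 4 h (SE 0.40, adjusted p = 0.367) was not called, and those of -1.76 at 36 h (adjusted p = 0.0296) and -2.10 at 48 h (0.0159) were, in limma. At 72 h it was -0.77 (0.397). The other Thrsp probe set gave 0.94 at 4 h (0.336), -2.30 at 36 h (0.00856) and -2.50 at 48 h (0.00618). At 8 h its arrays (4327.6 and 4026) lay below both normal ones (5569 and 8089.1), unlike those of the brightest. At 72 h its mean intensity was 32.1% of that in normal liver, against 58.6% for the brightest.

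At 12 h replicate 1 of Thrsp was the lower array by far. Without replicate 1 the 12 h change was 0.42 (adjusted p = 0.333), and without replicate 2, one of the arrays of low 5′ signal, it was -1.20 (adjusted p = 0.0215). The 36 h call was lost without replicate 1 (adjusted p = 0.0897) or 2 (0.133) of normal liver, without replicate 1 (0.134) or 2 (0.152) of 36 h, without the 4 arrays of low 5′ signal (0.0726) and without the filter (0.0579). The 48 h call was lost without replicate 1 (0.0563) or 2 (0.101) of normal liver, and likewise without the first (0.145) or the second (0.0609) array of 48 h. Late minus early was -1.70 (SE 0.23, adjusted p = 0.000395), and that call held in 25 of 25 other settings.

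The ratio of the paralogs Mid1ip1 and Thrsp within an array was lower at the early than at the late times. Its log2 values were -2.47 and -2.45 in normal liver, -5.27 and -5.95 at 4 h, -4.81 and -5.08 at 8 h, -3.08 and -4.33 at 12 h, -1.81 and -2.10 at 36 h, -1.08 and -1.31 at 48 h, and -2.15 and -2.42 at 72 h. All 6 early arrays lay below, and all 6 late arrays above, both normal arrays. The mean was -1.81 ± 0.52 at the late and -4.76 ± 0.98 at the early times (SD, n = 6 each), a difference of 2.94 (exact permutation test, two-sided, p = 0.00216, the smallest that 924 arrangements can give, adjusted 0.00433). When those 4 arrays were left out, the difference was 3.19, again the smallest possible exact p (0.0286, adjusted 0.0571). A ratio within an array shows unequal change, not which of the genes moved.

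**Figure D3:**
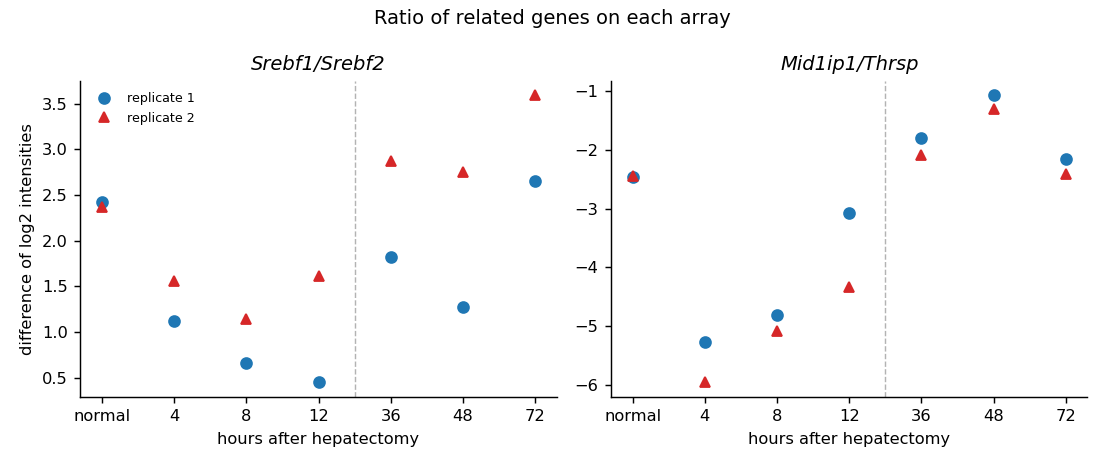
Difference of log2 intensities within each array for Srebf1 over Srebf2 and for Mid1ip1 over Thrsp, in normal liver and at 4 to 72 h after PHx. Points are arrays, and the dashed line parts the early times (4, 8 and 12 h) from the late ones. The late Mid1ip1/Thrsp values lie between -2.42 and -1.08, above all early ones.

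Angptl8 fell at 4, 8 and 12 h to nearly the same intensity, and at 48 h its arrays lay in or above the range of normal liver. Its intensities were 1185.5 and 1424.1 in normal liver, 231.4 and 237.8 at 4 h, 238.7 and 228.2 at 8 h, 236 and 252.4 at 12 h, 787.7 and 581.7 at 36 h, 1242.7 and 2554.6 at 48 h, and 742.3 and 749.2 at 72 h. The 6 early arrays lay within 228.2 to 252.4, all above their background of at most 138.3. The change was -2.22 at 4 h (SE 0.29, adjusted p = 0.00162), -2.23 at 8 h (0.00076) and -2.17 at 12 h (0.000949) in limma, and these 3 calls held in 24 of 24 other settings each. The values of -0.89 at 36 h (0.126), 0.44 at 48 h (0.522) and -0.76 at 72 h (0.244) were not called. Without either 48 h array the 36 h change was called (0.0452).

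Angptl8 was also the 1 gene of the 8 called between neighbouring times. At 36 h it was higher than at 12 h by 1.29 (SE 0.29, adjusted p = 0.0287), a step in which 3.08% of all tested probe sets were called higher. That call was lost without replicate 1 (0.0653) or 2 (0.0834) of 12 h, without replicate 1 (0.207) or 2 (0.0765) of 36 h, without the 4 arrays of low 5′ signal (0.304), and with the 4 arrays alone (0.143). Of the other steps, 8 against 4 h called 1.42% of probe sets, 12 against 8 h 0.479%, 48 against 36 h 0.464% and 72 against 48 h 0%. By limma 0 of the 8 genes were called in each. An unadjusted p under 0.05 was reached by 2, 2, 4 and 3 of the 8. Of all tested probe sets, 16%, 5.02%, 8.63% and 2.73% (370 in the last step) did. Late minus early was 1.81 for Angptl8 (SE 0.17, adjusted p = 2.12e-05).

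Pnpla3 was dim. Its intensities were 182.4 and 119.6 in normal liver, 187.7 and 115.6 at 4 h, 181.7 and 72.5 at 8 h, 162.1 and 151.6 at 12 h, 94.4 and 39.1 at 36 h, 334.9 and 115.7 at 48 h, and 177.3 and 118.6 at 72 h. It was above background on 1 of 2 arrays at 8 and 36 h and on both arrays elsewhere. Replicate 1 was the brighter array in all 7 groups. The changes lay between -0.77 at 36 h (SE 0.41, adjusted p = 0.354) and 0.34 at 48 h (adjusted p = 0.74). At this signal and spread, changes of about that size were not detectable.

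Ordered by mean level on the log2 scale, Srebf1 was highest at 72 h and in normal liver, whose arrays overlapped, and lowest at 12 and 8 h, which overlapped too. For Mlxipl normal liver was highest, with no overlap with 4 h, and 8, 36 and 12 h were lowest, with overlap from each to the next. For Mid1ip1 the order was normal liver, 72, 48, 36, 12, 4 and 8 h, with no overlap between any neighbours. Single gaps of this kind were common, 72 h lying above 48 h without overlap for 13% of all tested probe sets. For Angptl8 it was 48 h, normal liver, 72, 36, 12, 4 and 8 h, with overlaps between 48 h and normal liver, between 72 and 36 h, and among 12, 4 and 8 h. Thrsp was highest at 4 h and lowest at 48 h, and Insig2 was highest at 4 and 8 h, which overlapped, and lowest at 48 h. For Srebf2 and Pnpla3 each group overlapped the next in the order.

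Over the 14 arrays, which share the groups and their scaling, the log2 intensities of Srebf1 and Mid1ip1 had a Pearson r of 0.86, those of Mid1ip1 and Angptl8 0.84, and those of Srebf1 and Mlxipl 0.71. Insig2 had -0.71 with Srebf1, -0.83 with Mid1ip1, -0.84 with Angptl8 and -0.24 with Mlxipl, and 0.68 with Thrsp. Thrsp had -0.36 with Mid1ip1, and Srebf1 had 0.08 with Srebf2. Among 8445 other genes, those most like Srebf1 were Car14 (r = 0.967), Mettl7a1 (0.922) and Abhd12 (0.917), and those most like Mlxipl were Vnn3 (0.963), Prodh (0.941) and Cyp2d22 (0.939). Most like Mid1ip1 were Ocln (0.932), Tug1 (0.929) and Ahctf1 (0.909), and most like Angptl8 were Ing2 (0.924), Mrpl49 (0.921) and Trpm7 (0.915). For Thrsp they were H2-Aa (0.950), Elovl5 (0.900) and Rcl1 (0.891), and for Insig2 they were Lpin1 (0.919), Plin5 (0.899) and St3gal5 (0.892). The highest for Srebf2 was Rab5b (0.823) and for Pnpla3 Eef2k (0.846). These are descriptions of 14 arrays in 7 groups.

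Of 15 measured genes of fatty acid and triglyceride synthesis that SREBP-1 drives, 3 were called lower at 8 h (4.72% of all tested probe sets), 7 lower at 12 h (6.21%), 2 lower at 36 h (1.88%) and 3 lower at 48 h (0.685%), and none was called higher than normal liver at any time. At 4 and 72 h none was called in limma. There 2 and 4 had an unadjusted p under 0.05, against 13.8% and 15.2% of all tested probe sets. Their median changes at 4, 8 and 12 h were 0.03, -0.44 and -0.96, and those at 36, 48 and 72 h were -0.58, -0.56 and -0.22. Fasn, the fatty acid synthase, changed by -1.07 at 8 h (SE 0.23, adjusted p = 0.0129), -1.17 at 36 h (0.0146) and -1.35 at 48 h (0.00791). From 8 to 12 h Fasn moved by 0.11 (SE 0.23), a step that was not called. Acss2, which makes acetyl-CoA from acetate, changed by -1.84 at 12 h (SE 0.25, adjusted p = 0.000935), Acly, the ATP citrate lyase, by -1.95 (SE 0.34, 0.00338), and Gpam, which begins glycerolipid synthesis, by -1.33 (SE 0.26, 0.00746). Acacb, the mitochondrial acetyl-CoA carboxylase, was above background on 0 of 2 arrays at 12 h and at least 9.38-fold lower there (adjusted p = 0.00451). Srebf1 was called lower at 8 and 12 h and not at 36 and 48 h, where Acss2 and Fasn were. Its mean intensity was still 51.2% of that in normal liver at 36 h and 59.2% at 48 h. Whether Srebf1 and these 2 genes changed unequally was not tested. Without the 4 arrays of low 5′ signal 3 were called at 12 h, 2 at 48 h and 0 at both 8 and 36 h, and with these arrays as a block 5 were called at 8 h.

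Of 18 measured genes of cholesterol synthesis and uptake, which SREBP-2 drives, 0 were called in limma at 4 h. There 3 had an unadjusted p under 0.05, against 13.8% of all tested probe sets. At 8 h 9 were called lower (4.72% of all tested probe sets) and at 12 h 11 (6.21%). The medians at 4, 8 and 12 h were 0.01, -0.70 and -1.13. Srebf2 itself passed the test at neither 8 nor 12 h. At 36 h, 2 were called higher (2.28% of all) and 0 lower, with a median of 0.40. At 48 h 4 were called lower (0.685%) and at 72 h 5 (0.869%), with medians of -0.85 and -0.81. Hmgcs1, the cytosolic HMG-CoA synthase, changed by -2.09 at 12 h (SE 0.26, adjusted p = 0.000576), and Sc5d, a late step of the pathway, by -2.30 (SE 0.21, 0.000117). Mvk, the mevalonate kinase, was below background on both arrays at 8 and 12 h, at least 7.83-fold lower at 8 h (adjusted p = 0.00035) and at least 5.48-fold lower at 12 h (0.000231). Cyp51 (0.97, SE 0.23, 0.0329) and Idi1 (1.15, SE 0.29, 0.0484) were the 2 called higher at 36 h. Without the 4 arrays of low 5′ signal 4 and 5 were called at 8 and 12 h, 1 at 48 h and 0 at both 36 and 72 h.

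**Figure D4:**
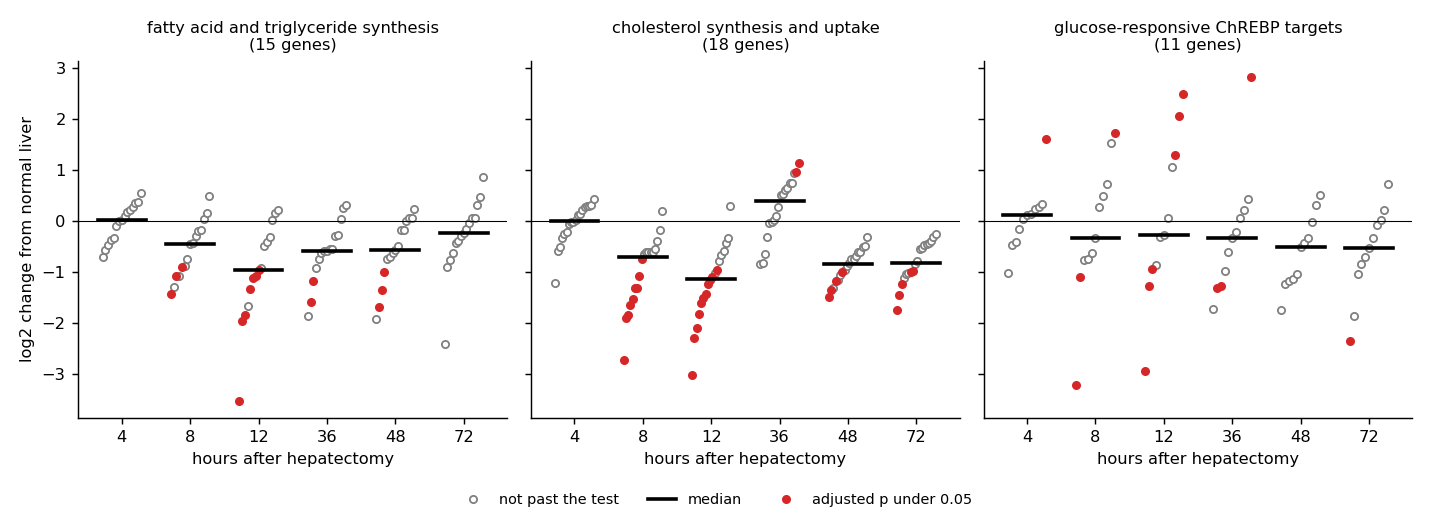
Change from normal liver (log2 scale) of every tested gene of 3 target lists at 4 to 72 h after PHx, sorted within each time. Filled points have an adjusted p under 0.05 and bars are medians. The cholesterol list has its medians below 0 at 8 and 12 h and above 0 at 36 h. Fitted values of Acacb at 12 h, Mvk at 8 and 12 h and Fgf21 are plotted, where the text gives bounds.

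Of 11 measured targets of ChREBP, 1 was called higher at 4 h (1.6% of all tested probe sets), 1 higher (4.87%) and 2 lower (4.72%) at 8 h, and 3 higher (5.97%) and 3 lower (6.21%) at 12 h. At 36 h 1 was called higher (2.28%) and 2 lower (1.88%), at 48 h 0 and at 72 h 1 lower (0.869%), with medians between -0.52 and 0.13. At 48 h 5 had an unadjusted p under 0.05 in limma, against 14.1% of all tested probe sets. G6pc, the glucose 6-phosphatase that releases glucose, changed by -3.22 at 8 h (SE 0.46, adjusted p = 0.00117), -2.93 at 12 h (0.00189) and -2.34 at 72 h (0.0163). Pklr, the liver pyruvate kinase, changed by -1.09 at 8 h (SE 0.27, 0.0246) and -1.30 at 36 h (0.0179), and Khk, the fructokinase, by -1.28 at 36 h (SE 0.28, 0.0233). From 8 to 12 h Pklr moved by 0.15 (SE 0.27), which was not called. Fgf21, a hormone of fasting and stress, was below background on both normal arrays and at least 3.88-fold higher at 4 h (0.0308), 4.35-fold at 8 h (0.00849), 8.03-fold at 12 h (0.0011) and 10.4-fold at 36 h (0.000954). Arrdc4 (2.06, SE 0.42, 0.00927) and Klf10 (1.30, SE 0.29, 0.0139) were called higher at 12 h. Leaving out the 4 arrays of low 5′ signal, 1 was called at 8 h, 3 at 12 h and 1 at 36 h.

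Of 10 genes of SREBP processing and turnover, 4 were measured. Scap, the escort of SREBP, changed by -1.24 at 8 h (SE 0.30, adjusted p = 0.0249) and -1.13 at 12 h (0.0325), the times at which Srebf1 was called lower, and neither was called without the 4 arrays of low 5′ signal. Erlin1, an endoplasmic reticulum protein that binds SREBP, Scap and Insig, was called higher at 72 h (1.09, SE 0.25, 0.0447). Of 19 measured partners and upstream regulators, 0 were called in limma at 4 h. There 2 had an unadjusted p under 0.05, against 13.8% of all tested probe sets. At 8 h 2 were called lower and at 12 h 1, where 4.72% and 6.21% of all tested probe sets were called lower. Nr0b2, the corepressor SHP, changed by -2.03 at 8 h (SE 0.34, 0.00321) and -2.22 at 12 h (0.0017), and Irs1, which relays insulin signals, by -1.54 at 8 h (SE 0.30, 0.00831).

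Among 10 measured genes that fasting or insulin is known to move, 3 rose while Angptl8 and Mid1ip1 were low. Pdk4, Lpin1 and Angptl4 were called higher at 4, 8 and 12 h, where 1.6%, 4.87% and 5.97% of all tested probe sets were. At these times 0 were called lower, where 0.825%, 4.72% and 6.21% of all were. Pdk4, which blocks entry of pyruvate into mitochondria, changed by 4.91 at 4 h (SE 0.57, adjusted p = 0.000688), 3.23 at 8 h (0.00451) and 3.91 at 12 h (0.00138). Lpin1, a phosphatidate phosphatase and coactivator, changed by 1.64 at 4 h (SE 0.30, 0.0138), 1.72 at 8 h (0.00393) and 1.51 at 12 h (0.00718), and Angptl4, an inhibitor of lipoprotein lipase, by 0.89, 1.14 and 1.36 (SE 0.20, 0.0378, 0.00399 and 0.00131). At 48 h Lpin1 (-1.45, 0.0234), Angptl4 (-0.86, 0.0447) and Igfbp1 (-2.02, 0.0499) were called lower (0.685% of all tested probe sets), when Angptl8 was at or above its normal range. No source used here gives the food intake of the mice, and a part of fasting in these results was not tested.

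At the late against the early times, the fatty acid list had 3 of 15 called higher (Scd2, Elovl6 and Gpam) and 3 lower (Elovl5, Scd1 and Me1), with a median of 0.12. Elovl5, a fatty acid elongase that was also among the genes most like Thrsp, changed by -0.91 (SE 0.14, adjusted p = 0.000937). The cholesterol list had 6 of 18 called higher, among them Sc5d (1.001, SE 0.12, 0.000194) and Mvk (1.18, SE 0.18, 0.001), and 1 lower (Tm7sf2), with a median of 0.28. Of the ChREBP targets 4 of 11 were called lower, Klf10, Txnip, Khk and Arrdc4, with Txnip, an inhibitor of thioredoxin induced by glucose, at -2.44 (SE 0.30, 0.000207). The median of all tested probe sets was 0.02, and 9.87% of them were called higher and 5.94% lower. With those 4 arrays left out, 1 was called in the fatty acid list, 2 in the cholesterol list and 3 among the ChREBP targets.

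Of 10 tested clock genes, which set lipid synthesis over the day, 1 was called higher and 2 lower at 8 h (4.87% and 4.72% of all tested probe sets), 2 higher and 1 lower at 12 h (5.97% and 6.21%), 1 higher at 36 h (2.28%) and 1 higher at 72 h (1.62%). None was called in limma at 4 or 48 h. There 5 and 1 had an unadjusted p under 0.05, against 13.8% and 14.1% of all tested probe sets. Per1 was called higher at 8 h (1.90, SE 0.51, adjusted p = 0.0367) and 12 h (3.32, 0.00179), and Dbp at 12 h (0.98, SE 0.25, 0.0225), 36 h (2.38, 0.000261) and 72 h (1.55, 0.00489). Clock was called lower at 8 h (-1.13, SE 0.27, 0.0218) and 12 h (-1.10, 0.0202), and Cry2 at 8 h, when it was below background on both arrays (at least 2.14-fold lower, 0.0337). The part of the time of day in the levels of Srebf1, Mlxipl and the other regulators was not tested.

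Of 4 adipocyte markers tested, 1 was called higher at 4 h (1.6% of all tested probe sets), 2 at 8 h (4.87%) and 2 at 12 h (5.97%). At 36 h, without replicate 2, which had the higher acinar, muscle and neutrophil sums, Mlxipl was called at -2.10 (adjusted p = 0.0468), while Mid1ip1 (0.0779) and Thrsp (0.152) were not. The calls of Srebf1, Mlxipl, Mid1ip1 and Angptl8 at 8 and 12 h held when the 4 arrays of low 5′ signal were left out, with adjusted p up to 0.0405.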

How the data were processed

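Total RNA of pooled mouse livers was measured on 14 single-colour arrays, biotin-labelled per the labels. The deposited values are intensities on a linear scale, 1 per probe set, and no source used here names the software that made them. After trimming 2% at each end, the mean of every array was between 500.19 and 500.284, so the authors had scaled the arrays; this scaling was kept. Values were never negative, and 1 was zero. Of 22690 probe sets, 64 controls were left out. Of the other 22626, 20380 have 1 gene symbol in the annotation of the array, 691 several and 1555 none; 20351 were matched by gene identifier to RefSeq, and no symbol was altered by it.

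A pseudocount of 56.6, the 25th percentile of all intensities, was added before taking log2. Probe sets with a mean intensity of at least 128.8, the 40th percentile, were tested, 13576 for 8453 genes. In limma 3.58.1 under R 4.3.3, 7 group means were fitted to the 14 arrays; the spread of a probe set had 7 residual degrees of freedom and eBayes added 5.07. Each contrast was adjusted by Benjamini-Hochberg on its own. A level of background was set for each array from 27 bacterial controls, as their 95th percentile (43.56 to 138.3). Where no array of a side exceeded it, the fold is a bound against that background, the higher of background and the probe set's own value on each array. Ratios of related genes were compared by exact permutation; the planned Insig1/Insig2 ratio was not run.

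The members and gene lists were chosen with earlier results of these data known. The genes named were drawn from all members, up to 4 called genes of a list per contrast by adjusted p, every called gene where 5 or fewer were called, and the 3 genes most correlated with each member. Not every gene that this rule admits is named, so a list gene left unnamed at a time may have been called there. Other settings tried were the pseudocounts 14.15 and 226.4, a 60th percentile filter or none, quantile normalization, weights per array, a block for the replicate number, the arrays of low 5′ signal (under 0.2) as a block or left out, the next brightest probe set, each array left out, and only the arrays of a comparison; counts of the lists without the 4 arrays or with the block were added after seeing the data. On simulated data for 8 h against normal liver (13576 probe sets), 15% of 100 changed by 1 and 74% of 100 changed by 2 in log2 were recovered, with 4 false calls. The simulation changed only these probe sets and drew independent noise, with no arrays of low 5′ signal. Its rates need not hold for the data, where 9.59% of probe sets were called at 8 h.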

Additional observations from a re-analysis of the deposited data

Results flagged for a closer look

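The change from normal liver differed between the late and the early times for 5 regulators, by the test of that difference in limma (36, 48 and 72 h minus 4, 8 and 12 h, 6 arrays each). It was higher at the late times by 1.19 for Srebf1 (SE 0.18, adjusted p = 0.000727), 1.24 for Mid1ip1 (SE 0.12, adjusted p = 2.73e-05) and 1.81 for Angptl8 (SE 0.17, adjusted p = 2.12e-05). For Thrsp the difference was -1.70 (SE 0.23, adjusted p = 0.000395) and for Insig2 -1.16 (SE 0.13, adjusted p = 9.57e-05). Of the steps between neighbouring times, 36 against 12 h differed for Angptl8, by 1.29 (SE 0.29, adjusted p = 0.0287).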

How the results depend on the processing

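Of 356 values of counts and ratios under other settings, 311 kept their direction and stayed within 1.5 times the reported count or on the same side of the threshold. The number of members called late against early (5) and over all times (6) held in every setting run. At 72 h, where 1 was called, 0 were called with quantile normalization, the lower pseudocount, no filter, only the arrays compared, or without the 4 arrays of low 5′ signal. At 48 h (1 called), 3 were called with the higher pseudocount, 2 with the stricter filter and 2 with the replicate block. At 36 h (3 called), 1 was called without the 4 arrays. For 36 against 12 h (1 called), 2 were called with the higher pseudocount, with the low 5′ arrays as a block or with the next brightest probe set, and 0 without these arrays or with only the arrays compared. For 48 against 36 h (0 called), 1 was called with quantile normalization or the higher pseudocount, and for 8 against 4 h (0 called), 2 with array weights. The ratio differences were 1.18 for Srebf1/Srebf2 and 3.19 for Mid1ip1/Thrsp without the 4 arrays, with fewer arrays and no longer past the threshold. Elsewhere the cause of these moves was not tested, and the ratio of Insig1 to Insig2 was not run.

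With 1 array left out in turn, the members called ranged from 2 to 5 at 4 h, 4 to 5 at 8 h, 4 to 5 at 12 h, 1 to 4 at 36 h, 0 to 3 at 48 h and 0 to 1 at 72 h. The range was 0 to 1 for 12 against 8 h, for 36 against 12 h and for 48 against 36 h. The ratio differences ranged from 1.19 to 1.65 for Srebf1/Srebf2 and from 2.71 to 3.28 for Mid1ip1/Thrsp. A group with 1 array left is taken to vary like the others. Single genes changed direction only where the reported change was not called. On the log2 scale, without 1 array, Pnpla3 ranged from -0.25 to 0.25 at 4 h, -0.67 to 0.22 at 8 h, -0.16 to 0.28 at 12 h, -0.25 to 0.93 at 48 h, -0.24 to 0.20 at 72 h and -0.29 to 0.10 late against early. Thrsp ranged from -0.10 to 0.0942 at 8 h and -1.20 to 0.42 at 12 h, Insig2 from -0.0211 to 0.28 at 36 h, Srebf2 from -0.91 to 0.17 and Angptl8 from -0.0618 to 0.95 at 48 h, and Mlxipl from -0.0260 to 0.36 late against early.

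Other reversals were -0.17 for Pnpla3 at 12 h with quantile normalization, and 0.000904 at 4 h with the higher pseudocount. With the low 5′ arrays as a block, Pnpla3 was 0.0273 at 8 h and 0.23 at 72 h, and Srebf1 was -0.10 at 72 h. Without these arrays, Pnpla3 was 0.22 at 8 h and 0.19 at 72 h, and Srebf2 was 0.0389 late against early. The next brightest probe set gave 0.0872 for Srebf2 at 4 h and -0.37 for Insig2 at 36 h. The median change over all tested probe sets at 48 h was -0.00222 with quantile normalization and 0.118 with the deposited scaling.

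The replicate number was tested as a block because the groups share the numbers 1 and 2. Same-numbered arrays of 2 groups deviated together in 9 of 21 pairs of groups at a correlation over 0.1, with a range of -0.19 to 0.53, and the labels give the numbers no other meaning, so they were not taken to pair the samples. With the replicate block 2 members were called at 48 h, against 1 without it, and 4 at 4 h, against 3; at the other times the counts were the same.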
